A study of Homo sapiens with 30 samples.

Results

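SIN3A and SIN3B are the paralogous scaffold proteins of the SIN3 corepressor complex, and their binding in the parental MDA-MB-231 line, derived from a breast cancer of the triple-negative type and long established in culture, is compared here. The chromatin immunoprecipitation sequencing (ChIP-seq) series holds 30 samples, of which 18 have a list of peak summits. The comparison rests on 4 of these, the 2 SIN3A libraries and the 2 SIN3B libraries, chosen by their labels. All 4 came from parental cells, with no genetic change named in the labels. Parental libraries of SAP30, H3K4me3, H3K9Ac and Pol II are read beside them. For Pol II, H3K4me3 and H3K9Ac, libraries of a SAP30 knockout line, SAP30-KO1, are also read. SIN3A was precipitated with an antibody from Abcam and SIN3B with one from Novus, and the labels name one input for SAP30 and SIN3A together and another for SIN3B. A difference between the proteins therefore cannot be told apart from a difference between antibodies, inputs or experiments. Nothing in the labels says that the replicates came from separate cultures, so the spread between them may be technical.

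Each SIN3 scaffold carries paired amphipathic helix domains that dock onto DNA-binding factors and a region that holds histone deacetylases. The scaffolds have no sequence specificity of their own. Factors known to bring SIN3 to DNA include the MXD and MNT partners of MAX, which read the E-box CACGTG, and the neuronal repressor REST, which reads the RE1 element. SIN3B has been linked to the repression of cell cycle genes in resting cells together with E2F4 and the DREAM complex.

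The deposited lists give each peak by its summit, the single base of highest enrichment. Summits within 1000 bp of each other were joined into a region, and a region with a summit of both replicates was a consensus region of that protein. The score of a summit was used only to rank it within its own list, from 0% for the best to 100%. A region was at a promoter when its summits came within 1000 bp of an annotated start site. There were 6035 SIN3A and 12864 SIN3B consensus regions, which fell into 12876 places. Both proteins were present at 5724 of them, SIN3B alone at 6924 and SIN3A alone at 228. "Alone" means that the other protein had no consensus region there. At 2735 of the 6924 SIN3B regions a SIN3A summit was present in 1 library, and at 4152 in neither. At 168 of the 228 SIN3A regions a SIN3B summit was present in 1 library, and at 44 in neither.

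The identity of the cells was checked at the promoters of marker genes. VIM, ZEB1, CD44, AXL and CAV1, which mark mesenchymal cells, had H3K4me3, H3K9Ac and Pol II peaks in both parental libraries. Of the luminal genes, GATA3 had no peak of any of these, and ESR1, PGR, FOXA1 and CDH1 had H3K4me3 without H3K9Ac or Pol II. EPCAM had all of these in both libraries. PTPRC, CD3E, ALB and NEUROD1, which mark other cell types, had none.

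The sequences around the summits show what kinds of places these are. All are from GRCh37 (hg19), read on the forward strand from the reference genome, and each run is 60 bases long. Capitals mark a match to one of the short motifs searched, in either orientation, and a run without capitals has none. Each of the first 6 is centred on the best summit of a region. It is the first region of its class by mean rank, at a promoter or away from promoters, whose run overlaps no annotated untranslated region and lies on a chromosome from which sequence is printed here, so better-ranked regions were passed over. WASHC2C stood in place 3 of its class, SIGLEC16 in place 2 and ZNF367 in place 3. WASHC2C lies at chr10:46222585-46222644 and SIGLEC16 at chr19:50490514-50490573, and both proteins were present there. IDH3B lies at chr20:2644758-2644817 and the intergenic run 27482 bp downstream of the BOLA3 start site at chr2:74347521-74347580, and SIN3B was present there without SIN3A. ZNF367 lies at chr9:99181213-99181272 and the intergenic run nearest to NUPR2 at chr7:56441215-56441274, and SIN3A was present there without SIN3B. The motifs in capitals are the E-box CACGTG at WASHC2C, the left part of the RE1 element (TTCAGCACC, here reversed) at SIGLEC16 and the SP/KLF box GGGCGG (here reversed) at IDH3B.
WASHC2C promoter, both: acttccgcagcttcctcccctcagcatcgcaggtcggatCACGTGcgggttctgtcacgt
SIGLEC16 intron, both: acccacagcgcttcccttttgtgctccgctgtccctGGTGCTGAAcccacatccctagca
IDH3B promoter, SIN3B alone: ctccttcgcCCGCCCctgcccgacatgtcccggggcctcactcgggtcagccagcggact
BOLA3 intergenic, SIN3B alone: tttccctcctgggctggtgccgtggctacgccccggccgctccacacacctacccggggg
ZNF367 promoter, SIN3A alone: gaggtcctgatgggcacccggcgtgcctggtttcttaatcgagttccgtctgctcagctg
NUPR2 intergenic, SIN3A alone: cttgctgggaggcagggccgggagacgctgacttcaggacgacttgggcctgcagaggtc

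A further 5 runs were chosen after the motif shares were seen, as examples of a motif in a class. Each is the first region by rank whose run passes the same conditions, and regions with the motif that ranked better were passed over for them. ZNF383 stood in place 60 of its class, TMEM199 in place 6, MMP24 in place 14, FOSB in place 6 and MCOLN1 in place 2. The runs are placed around the motif, which alone is in capitals. They are the E-box in the MCOLN1 promoter (chr19:7587442-7587501) and upstream of FOSB (chr19:45959243-45959302), where both proteins were present, the ETS site CCGGAAGT in the TMEM199 promoter (chr17:26684584-26684643) and the YY1 site AANATGGCG in the ZNF383 promoter (chr19:37708992-37709051), where SIN3B was present without SIN3A, and the RE1 part in the MMP24 promoter (chr20:33814972-33815031), where SIN3A was present and SIN3B was in 1 library.
MCOLN1 promoter, both: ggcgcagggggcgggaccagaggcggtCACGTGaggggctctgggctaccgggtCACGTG
FOSB upstream, both: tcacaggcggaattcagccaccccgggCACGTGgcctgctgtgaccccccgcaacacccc
TMEM199 promoter, SIN3B alone: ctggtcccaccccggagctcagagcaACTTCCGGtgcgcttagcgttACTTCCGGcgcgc
ZNF383 promoter, SIN3B alone: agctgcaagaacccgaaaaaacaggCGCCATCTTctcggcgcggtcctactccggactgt
MMP24 promoter, SIN3A alone: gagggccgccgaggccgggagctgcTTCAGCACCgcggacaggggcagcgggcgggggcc

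SIN3A sat almost wholly inside the SIN3B territory, while SIN3B had many places of its own. Of the SIN3A regions, 96.2% overlapped a SIN3B region, and of the SIN3B regions 46.2% overlapped a SIN3A region. In the 4 pairs of 1 SIN3A and 1 SIN3B library, the first share lay between 94.1% and 96.1% and the second between 41.1% and 49.4%. Within SIN3A, 76.0% of the merged regions of replicate 1 were found in replicate 2, and within SIN3B 72.0% were. In the other direction the shares were 78.6% and 85.4%. The SIN3A lists held 11115 and 10861 peaks and the SIN3B lists 26307 and 22298. The groups did not overlap in this number, but with 2 libraries against 2 the two-sided exact permutation test cannot give a p below 0.333, which is the value it gave here. Sequencing depth is unknown, so how much of the difference in length is binding and how much is depth or enrichment cannot be told apart.

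Cutting all 4 lists to the 10861 best-ranked peaks changed this picture. SIN3A then had 5960 consensus regions and SIN3B 7347, and 76.8% of the former overlapped the latter, against 62.9% in the other direction. Both proteins were present at 4541 regions, SIN3B alone at 2724 and SIN3A alone at 1383. The 1383 SIN3A regions were rarely free of SIN3B in the whole lists, where 1167 had a SIN3B summit in both libraries, 172 in 1 and 44 in none. Of the 2724 SIN3B regions, 1133 had no SIN3A summit in the whole lists and 1521 had one in 1 library. The whole SIN3A lists (11115 and 10861 peaks) are nearly the cut lists, while the whole SIN3B lists (26307 and 22298) are far longer. List length thus fixes most of this contrast, which cannot be read as a difference between the proteins. Between single libraries of equal length, SIN3A replicates shared 76.2% and 77.6% of their regions and SIN3B replicates 75.4% and 78.0%. SIN3A regions were found in a SIN3B library at 77.8% to 79.0%, close to the shares between SIN3A replicates, and SIN3B regions in a SIN3A library at 62.2% to 66.5%. With a further cut to 5430 peaks a list, the overlaps were 54.4% of the SIN3A and 41.2% of the SIN3B regions.

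**Figure D1:**
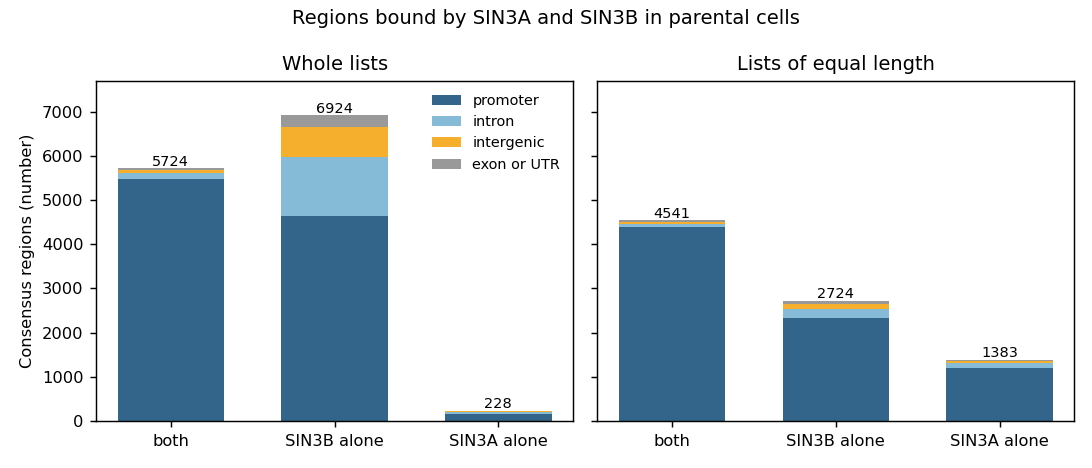
Number of consensus regions (vertical axis) bound by both proteins, SIN3B alone and SIN3A alone, in the whole lists (left) and in lists of equal length (right), with colours for the annotation of the region. The 6924 regions of SIN3B alone hold most of the intronic and intergenic places, and the 228 regions of SIN3A alone become 1383 at equal length.

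With summits extended by only 100 bp, 56.6% of the SIN3A regions overlapped a SIN3B region and 2761 regions had SIN3A alone. The number of SIN3A regions without SIN3B also moved with single libraries. It was 575 without SIN3A replicate 1, 577 without SIN3A replicate 2, 168 without SIN3B replicate 1 and 102 without SIN3B replicate 2, since a single library then stands for its protein. The number for SIN3B alone was 12807 without SIN3B replicate 2 and between 5433 and 9751 without any 1 of the others.

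The share of SIN3B regions with SIN3A was lower the lower the SIN3B peak ranked. In the best decile of SIN3B regions 72.7% had SIN3A, in the fourth 66.5%, in the sixth 45.6% and in the last 9.48%. At promoters alone the share was 72.7% in the best and 15.9% in the last decile. Promoters made up 99.1% of the 1286 regions of the best decile and 45.1% of the last. From the side of SIN3A there was little such trend. SIN3B was present at 97.0% of the best and 93.9% of the last decile of SIN3A regions. The deciles were taken in the whole lists only, with 6035 SIN3A and 12864 SIN3B regions. The part of list length in the unlike trends was not tested. Across the 5724 shared regions, Spearman's rho was 0.303 between the mean SIN3A and the mean SIN3B rank, against 0.450 between the SIN3A replicates and 0.713 between the SIN3B replicates. These correlations are across regions, which are not independent, and share their libraries.

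**Figure D2:**
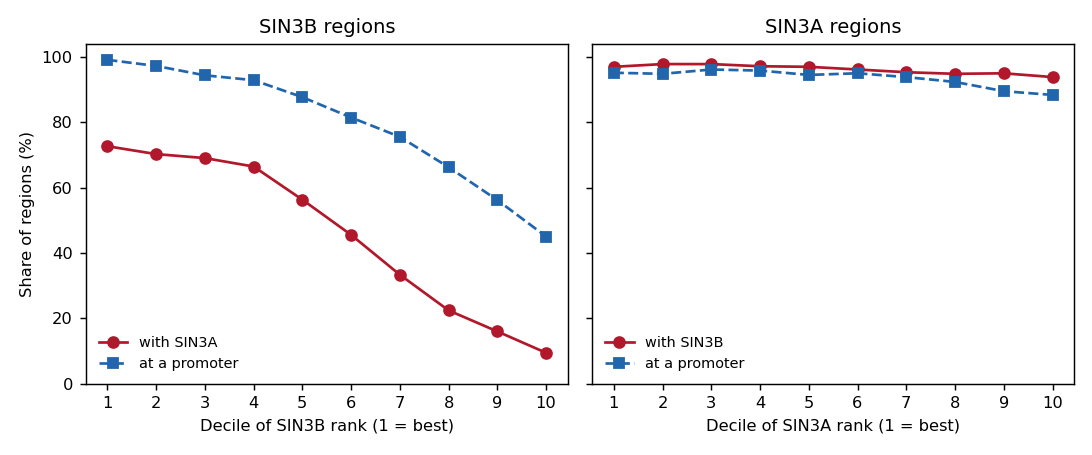
Share of regions (%) that held the other SIN3 protein (red circles) or lay at a promoter (blue squares), by decile of the region's own rank, for SIN3B regions (left) and SIN3A regions (right). In these whole lists, the share of SIN3B regions with SIN3A runs from 72.7% to 9.48%, whereas that of SIN3A regions with SIN3B stays between 93.9% and 97.8%.

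Places with both proteins were promoters in almost every case. Promoters held 95.8% of the regions with both, 67.1% of those with SIN3B alone and 66.2% of those with SIN3A alone. Introns held 2.36%, 19.2% and 18.4% of these classes, and intergenic sequence held 1.14%, 9.86% and 12.3%. Of the 4152 SIN3B regions with no SIN3A summit at all, 54.1% were at promoters. At equal length the promoter shares were 96.6%, 85.4% and 85.97%. In single libraries 90.6% of the summits were at promoters in both SIN3A replicates, against 63.7% and 71.0% in the SIN3B replicates. The groups did not overlap (exact permutation test, two-sided, p = 0.333, 0.418 after adjustment over 79 comparisons of this kind, n = 2 each). With lists of equal length the SIN3A shares were 90.7% and 90.6% and the SIN3B shares 80.6% and 85.1%.

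At promoters the summits of both proteins lay just inside the gene. The median position of summits within 1000 bp of a start site was +65 bp and +53 bp for SIN3A and +40 bp and +72 bp for SIN3B, so the libraries of both proteins interleaved. Of those summits 29.4% and 31.0% were upstream for SIN3A and 38.8% and 31.3% for SIN3B. At the 5482 promoters with both proteins, the best summits of the SIN3A replicates lay 92 bp apart in the median and those of the SIN3B replicates 118 bp apart. A SIN3A and a SIN3B summit lay 142 bp to 151 bp apart in the median, so the distance between proteins exceeded that between replicates in all 4 pairs of libraries. The median distance between the outermost summits of a promoter region was 891.5 bp with both, 472 bp with SIN3B alone and 124 bp with SIN3A alone, an order that the classes partly fix, since a region with both holds summits of 4 lists and the others of fewer. Start sites of at least 2 protein-coding genes were within reach of 18.5% of the promoter regions with both, 10.2% of those with SIN3B alone and 9.27% of those with SIN3A alone, and the part of the wider span in this share was not tested.

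Among promoters with both proteins, the best mean rank was that of TRMT1, a tRNA methyltransferase gene, whose summits on chromosome 19 (13227500 to 13227547) ranked at 0.0720% and 0.948% in the SIN3A lists and at 0.00380% and 0.0135% in the SIN3B lists. SAP30 and Pol II were present there in both libraries, while H3K4me3 and H3K9Ac had no summit within 1000 bp. MCOLN1, which encodes a lysosomal cation channel, ranked at 0.522% and 0.562% for SIN3A and at 0.287% and 0.363% for SIN3B. WASHC2C, a subunit of the endosomal WASH complex, ranked at 1.41%, 0.861%, 0.304% and 0.117% in the same order. The others named by rank were DNAAF10, the mitochondrial helicase gene SUPV3L1, SCFD2, the nucleoside diphosphate kinase gene NME1 and CENPP, a centromere protein gene. Of these 8 regions, an E-box was within 100 bp of the best summit at MCOLN1, WASHC2C, SCFD2 and NME1. A YY1 site was as close at TRMT1, and the SP/KLF box at TRMT1, MCOLN1 and WASHC2C.

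Promoters at the very top of the SIN3B lists could be free of SIN3A summits. IDH3B, a subunit of mitochondrial isocitrate dehydrogenase, held the highest score of SIN3B replicate 1 (rank 0) and ranked at 0.0404% in replicate 2, and the nearest SIN3A summits were 10964 bp and 11318 bp away. ZNF830 ranked at 0.0646% and 0.00448%, with SIN3A summits no closer than 18764 bp. SAP30BP, which encodes a partner of SAP30, ranked at 0.0114% and 0.105%, with the nearest SIN3A summits 26516 bp and 26518 bp away. The ubiquitin ligase gene UBE3B, the N-myristoyltransferase gene NMT1, TMEM199, NGDN and CDKAL1 completed the 8 best-ranked, all with mean ranks of at most 0.178%. SAP30, H3K4me3, H3K9Ac and Pol II were present in both parental libraries at all 8. A YY1 site was within 100 bp of the best summit at IDH3B, ZNF830, SAP30BP, NMT1 and NGDN. The SP/KLF box was as close at IDH3B, ZNF830, SAP30BP, UBE3B and TMEM199.

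SIN3A regions free of any SIN3B summit were few, and their best-ranked promoters included those of neuronal genes. There were 20 such regions at promoters and 24 elsewhere. SCRT1, a neuronal zinc finger repressor gene, ranked at 2.89% and 1.06% in the SIN3A lists, with SIN3B summits no closer than 9667 bp. ADGRB3, a brain adhesion receptor gene on chromosome 6, ranked at 3.90% and 5.25%, and the nearest SIN3B summits were 563370 bp and 563694 bp away. Both have the RE1 part within 100 bp of the summit and SAP30 in both libraries, and neither has H3K4me3, H3K9Ac or Pol II. MAPK8IP2, a scaffold gene of neurons, ranked at 12.8% and 1.92%. ZNF367 ranked at 4.04% and 7.13%, but SIN3B summits lay 1579 bp and 1586 bp away, just beyond the joining distance. STK39, PODXL2 and GOLGA7B were also among the best-ranked, with mean ranks of 25.9% to 50.1%.

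Away from promoters, the SIN3A regions free of SIN3B included places without any other mark. Only 8 of the 24 had SAP30 in both libraries, and 6 lay within 1000000 bp of a gap of at least that length in the assembly. The first was an intergenic place on chromosome 7 (56441244) at ranks of 0.216% and 1.57%, and the second, also on chromosome 7 (61982967 to 61982974), lay 928643 bp from the gap and ranked at 1.51% and 1.92%. An intergenic place on chromosome 16 (33973745 to 33973749) ranked at 7.04% and 4.21%. None of these 3 had SAP30, H3K4me3, H3K9Ac or Pol II. Of the 1906 SIN3B regions away from promoters that were free of SIN3A, 11 lay as close to such a gap and 1681 had SAP30 in both libraries. The intron of PPFIA4 on chromosome 1 (203007477 to 203007494) and that of MMEL1 were also among the 5 best-ranked, and PPFIA4 had SAP30. Among the distal SIN3B regions, the best-ranked were the place near BOLA3 shown above, at 0.814% and 1.13%, and one upstream of RGS9 at 1.66% and 5.65%. Those with both proteins included an exon of PLEC and the intron near SIGLEC16, which ranked at 2.44% and 0.143% for SIN3A and at 6.19% and 5.89% for SIN3B.

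SAP30, a subunit of the same complex, was present at promoters of each class. It was found at 98.8% of the promoter regions with both, 97.4% of those with SIN3B alone and 99.3% of those with SIN3A alone. H3K4me3 was found at 99.1%, 95.7% and 91.4%, H3K9Ac at 98.6%, 97.0% and 88.1%, and Pol II at 98.8%, 92.6% and 83.4%. Of the 20 promoters with SIN3A and no SIN3B summit, SAP30 was present at 20 and Pol II at 11. Away from promoters the classes lay further apart. H3K9Ac was present at 83.1% of the 242 regions with both and 84.6% of the 2281 with SIN3B alone, but at 48.1% of the 77 with SIN3A alone (exact binomial 95% interval of the last 36.5% to 59.7%, counting error only). Pol II was present at 60.7%, 46.1% and 26.0%, and SAP30 at 97.1%, 90.0% and 76.6%.

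Peaks of SAP30, Pol II and H3K4me3 ranked better at promoters with both proteins than at those with SIN3B alone at a like SIN3B rank. Among promoter regions of the best SIN3B decile, the median SAP30 rank was 5.38% and 5.71% in the SAP30 replicates for the 915 with both, and 23.02% and 23.6% for the 344 with SIN3B alone. The median SIN3B rank of these sets was 3.001% and 3.26%. The same order held in each of the 10 deciles and both SAP30 replicates. In the fifth decile the medians were 10.3% and 10.997% against 23.3% and 23.9%, and in the last 15.3% and 17.2% against 31.5% and 33.3%. For Pol II the medians were 23.6% and 20.3% with both and 32.9% and 28.7% with SIN3B alone in the best decile, and 25.6% and 25.5% against 46.1% and 44.004% in the last. For H3K4me3 the medians were 13.2% and 17.4% with both and 15.97% and 22.99% with SIN3B alone in the best decile, and 29.1% and 24.6% against 40.6% and 41.7% in the last. For H3K9Ac they were 9.74% and 9.78% with both and 11.2% and 11.02% with SIN3B alone in the best decile, and 13.7% and 13.9% against 19.7% and 20.9% in the last. SAP30 and SIN3A share an input in the labels and SIN3B has another, and the part of this in the SAP30 order was not tested. Promoter regions with both also spanned more, with a median of 891.5 bp against 472 bp for SIN3B alone. A wider span gives a longer stretch in which the best peak is sought, and its part in these orders was not tested.

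**Figure D3:**
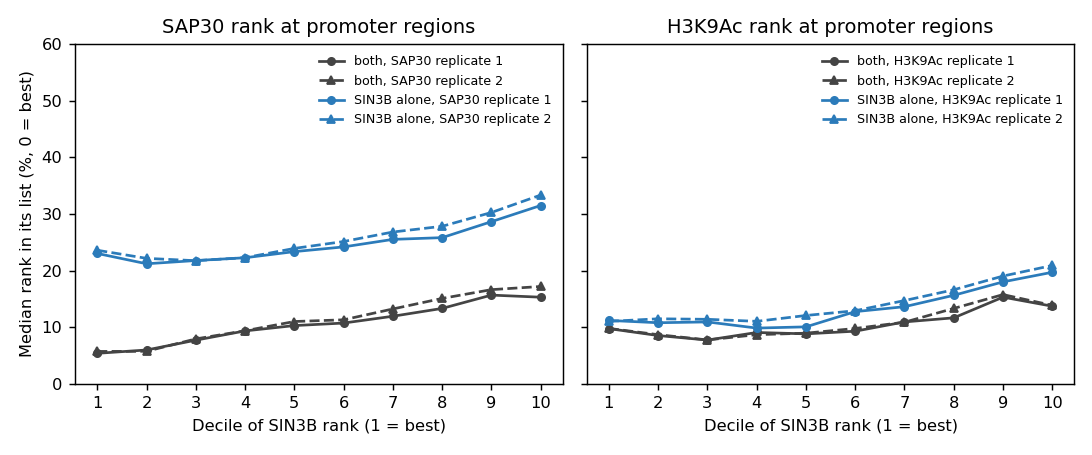
Median rank (%, 0 is best) of the SAP30 (left) and H3K9Ac (right) peak within 1000 bp of the summits of a promoter region, by decile of SIN3B rank, for regions with both proteins (grey) and with SIN3B alone (blue), 1 line per replicate. In the best decile SAP30 ranks at 5.38% and 5.71% with SIN3A and at 23.02% and 23.6% without it, and H3K9Ac at 9.74% and 9.78% with it and at 11.2% and 11.02% without it.

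The sequence at the summits differed between the classes. The 200 bases around the summit of promoter regions held 69.3% and 69.6% G and C at the SIN3A replicates where both were present, 67.3% and 67.9% at the SIN3B replicates of the same regions, 64.8% and 65.1% at SIN3B alone, and 72.1% and 73.1% at SIN3A alone. Within 100 bp of the summit the E-box CACGTG, the site of MYC, MAX and their repressive partners, was found at 11.7% and 12.04% of promoter regions with both by SIN3A summits, and at 9.07% and 7.46% by SIN3B summits. At SIN3B alone it was found at 4.76% and 3.704%, close to the 5.43% of 56002 protein-coding start sites. At SIN3A alone it was found at 19 of 151 best summits, or 12.6% (exact binomial 95% interval 7.75% to 18.95%, counting error only). The replicates of each class did not overlap with those of SIN3B alone. Away from promoters the E-box share was 20.7% and 21.9% with both by SIN3A summits, 18.2% and 11.2% by SIN3B summits, 16.9% and 19.5% at SIN3A alone, and 6.31% and 5.39% at SIN3B alone. The MCOLN1 and FOSB runs above show such sites. Over all promoter summits of a library, 9.43% and 10.1% of those of SIN3A and 6.11% and 5.14% of those of SIN3B had an E-box (exact permutation test, two-sided, p = 0.333, adjusted 0.418, n = 2 each).

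The YY1 and ETS sites leaned the other way at the strong end of the SIN3B list, the ETS site with overlapping replicates in the best decile. YY1 is a zinc finger factor and the ETS family includes GABPA, and both bind close to the start sites of housekeeping genes. In the best decile of SIN3B promoters, the YY1 site was within 100 bp of the SIN3B summit at 16.6% and 16.3% of the regions with SIN3B alone and at 10.2% and 9.62% of those with both. The ETS site stood at 20.1% and 15.7% against 16.8% and 12.6%, so its replicates overlapped. They did not overlap in the second decile, at 14.5% and 11.7% against 10.9% and 6.52%. In the third they stood apart too, at 12.4% and 8.84% against 6.75% and 4.38%. In the better-ranked 20% of SIN3B promoters, a limit chosen after seeing the data, the YY1 site was at 11.97% and 11.05% of the 1195 regions with SIN3B alone, at 15.0% and 13.2% of the 440 of them with no SIN3A summit, and at 6.22% and 6.02% of the 2925 with both. Over the whole classes the YY1 shares were 5.34% and 4.78% against 4.52% and 4.27%, and the ETS shares, 6.27% and 4.74% against 7.08% and 4.91%, overlapped. The NRF1 site GCGCNTGCG overlapped between these classes too, with 6.68% and 4.59% against 6.40% and 4.72%. The SP/KLF box GGGCGG was found at 58.6% and 60.6% of shared promoters by SIN3A summits and at 56.0% and 52.7% by SIN3B summits. It was found at 48.6% and 44.7% of those with SIN3B alone and at 66.9% and 73.5% of those with SIN3A alone.

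Away from promoters the share with the RE1 part differed between the classes and that with the AP-1 site did not separate them. The RE1 part TTCAGCACC was found near 9 of the 242 best SIN3A summits with both proteins and near 3 of 77 with SIN3A alone, but near 5 of 2281 with SIN3B alone, or 3.72%, 3.90% and 0.219% (exact binomial 95% intervals 1.71% to 6.94%, 0.811% to 10.97% and 0.0712% to 0.511%). SIN3A summits were read where SIN3A was present and SIN3B summits at SIN3B alone, so class and summit read differ together. At promoters the RE1 part was near 3 of 151 summits with SIN3A alone, MMP24 among them, or 1.99% (exact binomial 95% interval 0.412% to 5.70%), and near 24 of the 5482 best SIN3A summits with both, or 0.438%, which lies inside that interval. By best SIN3B summits it was near 16 of the 5482 with both, or 0.292%, and near 12 of 4643 with SIN3B alone, or 0.258%. The AP-1 site TGANTCA, read by the FOS and JUN families, was at 27.3% and 23.6% of the distal regions with both by SIN3A summits, 26.0% and 20.2% by SIN3B summits, 27.5% and 20.6% at SIN3B alone and 22.1% in either replicate at SIN3A alone, so the classes overlapped. The site was at 35.9% of the distal SAP30 and 4.86% of the distal H3K9Ac regions. The TEAD site GGAATG was at 16.0% and 15.2% of the distal SIN3B regions without SIN3A, above the 11.2% of each SIN3A replicate and the 8.68% and 10.3% of the SIN3B replicates where both were present.

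**Figure D4:**
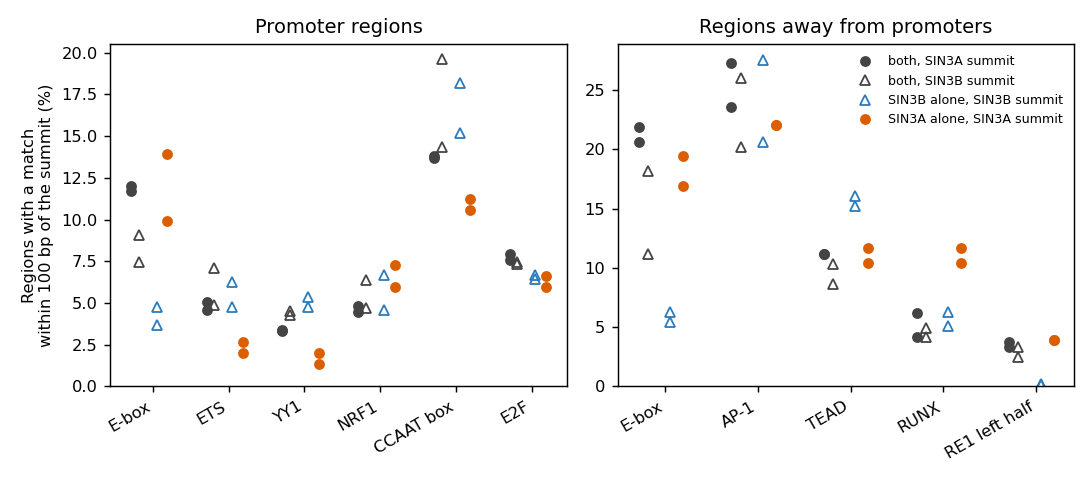
Share of regions (%) with a match to each motif within 100 bp of the summit, at promoters (left) and away from them (right), by class (colour) and by whose summit was read (filled circles SIN3A, open triangles SIN3B), 1 point per replicate. E-box shares of SIN3B alone lie at 3.704% to 6.31%, below those of every class with SIN3A, while the AP-1 shares of both and of SIN3B alone overlap.

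Genes were then sorted by the summits within 1000 bp of their start sites. Of the 20098 protein-coding genes, both proteins were present in both libraries at 6162 (30.7%), SIN3B alone at 4226 (21%) and SIN3A alone at 161 (0.801%). The other protein had no summit in either library at 1836 of the SIN3B genes, 9.14% of all genes, and at 15 of the SIN3A genes, 0.0746%. In the 4 pairs of single libraries, the number with both was 7349 to 7615, with SIN3B alone 3282 to 3643 and with SIN3A alone 148 to 237. With lists of equal length both were present at 25.2% of the genes, SIN3B alone at 11.8% and SIN3A alone at 5.93%. The counts of the gene lists that follow are read against these shares, without a test, and the lists were made with earlier results of these data known.

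Promoters of cell cycle genes mostly carried both proteins. Of the 40 genes of G2/M and mitosis, 39 had both and ESPL1, the separase gene, had SIN3B with SIN3A in 1 library. KIF20A, a mitotic kinesin gene, ranked at 0.459% and 0.193% for SIN3A and at 2.28% and 2.14% for SIN3B, and NEK2, CCNA2 and UBE2C had mean ranks of 1.79% to 2.09%. At equal length 35 of the 40 had both, 4 had SIN3A alone and none had SIN3B alone. Of the 47 genes of G1/S and DNA replication, 38 had both and 9 had SIN3B alone. RRM2, which encodes the regulated subunit of ribonucleotide reductase, ranked at 3.36% and 0.985% for SIN3A and at 1.97% and 0.558% for SIN3B, and MCM7 and ORC6, of the origin licensing machinery, had mean ranks of 1.72% and 2.05%. PRIM2, POLA2, POLD1 and RFC1 had SIN3B alone, all but POLA2 with SIN3A in 1 library. Of the 20 genes of the DREAM and RB family, 14 had both, among them the activators E2F1 and E2F3 and the atypical repressor E2F8. E2F4, the repressive partner within DREAM, had SIN3B at 9.59% and 2.64% and SIN3A in 1 library at 62.2%. RBL2, LIN37 and E2F2 also had SIN3B alone, RBL2 and LIN37 with SIN3A in 1 library. MYBL2 was the only member with SIN3A in both libraries and SIN3B in 1.

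Of the 13 MYC network genes, 8 had both, among them MYC, MAX, MXD3 and MXD1. MNT, whose protein pairs with MAX and recruits SIN3, ranked at 0.540% and 0.387% in the SIN3A lists, at 5.77% in SIN3B replicate 1 and was absent from SIN3B replicate 2. MLX had SIN3B alone, with SIN3A in 1 library at 20.6%. Of the 24 AP-1 and TEAD genes, 16 had both, with JUNB at 6.09% and 4.80% for SIN3A and at 2.78% and 4.24% for SIN3B. FOSL1 ranked at 3.38% and 7.26% for SIN3A and was in 1 SIN3B library at 15.6%. TEAD1, WWTR1, ANKRD1 and LATS2 were among the 6 with SIN3B alone, all but ANKRD1 with SIN3A in 1 library. At equal length the balance turned, and 11 of the 24 had both, 3 SIN3B alone and 6 SIN3A alone. Of the MYC network genes 6 then had both, none SIN3B alone and 3 SIN3A alone.

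Mitochondrial genes and zinc finger genes had SIN3B alone more often than both, as did several of the lists in the next paragraph. Of the 85 genes of oxidative phosphorylation, 46 had SIN3B alone and 30 had both. NDUFB7 and NDUFA9, subunits of complex I, had mean SIN3B ranks of 1.40% and 2.92% and no SIN3A summit. Of the 78 mitochondrial ribosomal protein genes, 40 had SIN3B alone and 35 had both. MRPS22 ranked at 0.688% and 0.558% for SIN3B without SIN3A, as did MRPL46 and MRPS11, which share a promoter peak at 0.688% and 0.482%. Within this list MRPL13 was one of the strongest SIN3B promoters at 0.0228% and 0.00897%, and SIN3A was present there at 26.6% and 3.93%. Of the 251 zinc finger genes of chromosome 19, 119 had SIN3B alone and 83 had both, with ZNF17 at 0.766% and 0.446% and without SIN3A. UQCRH of complex III and MRPS6 had SIN3A in both libraries and SIN3B in 1. At equal length these lists had 39, 38 and 81 genes with SIN3B alone and 30, 33 and 71 with both. The other housekeeping lists carried both more often. Of the 81 cytosolic ribosomal protein genes 51 had both and 27 SIN3B alone, of the 31 proteasome genes 21 and 9, of the 34 spliceosome genes 21 and 13, and of the 23 heat shock genes 15 and 6. At equal length these were 51 and 23, 21 and 9, 21 and 13, and 15 and 1. PSMB7, a catalytic proteasome subunit gene, ranked at 1.52% and 0.141% for SIN3B and had no SIN3A summit, and PSMB1 had SIN3A with SIN3B in 1 library. HSF1, the heat shock regulator gene, ranked at 0.0900% and 0.285% for SIN3A.

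Lists of cell identity, inflammation, angiogenesis and neurons varied in how many promoters carried either protein. Of the 25 mesenchymal and basal genes, 10 had both and 8 SIN3B alone. VIM ranked at 3.604% and 39.9% for SIN3A and at 10.2% and 28.3% for SIN3B, and ZEB1 had SIN3B at 63.7% and 28.3% with SIN3A in 1 library. Of the 25 luminal and epithelial genes, XBP1 had both and 6 had SIN3B alone, ERBB2 at 5.98% and 21.3% with no SIN3A. Of the 40 interferon-stimulated genes, 7 had both and 14 SIN3B alone, while 38 carried H3K4me3. TAP1, PSMB9 and RIGI had both, and IRF7 and ISG20 had SIN3B without SIN3A. Of the 24 cytokine and chemokine genes 3 had both and 4 SIN3B alone, IL6 and TNFAIP3 among the latter. Of the 29 angiogenesis genes, 5 had both, VEGFA, ADM, MET and NRP1 included, and 7 had SIN3B alone. Of the 34 neuronal RE1 target genes, 4 had both, L1CAM at 5.06% and 1.26% for SIN3A and at 34.8% and 76.0% for SIN3B, and SYP had SIN3A with SIN3B in 1 library. Of the 68 histone genes 6 had both and 18 SIN3B alone, of the 39 HOX genes 1 and 1. With lists of equal length the genes with SIN3B alone became few. The counts with both, SIN3B alone and SIN3A alone were then 5, 2 and 2 of the 40 interferon-stimulated genes, 8, 2 and 2 of the 25 mesenchymal genes, 5, 1 and 0 of the 29 angiogenesis genes, 2, 1 and 1 of the 24 cytokine genes, and 2, 0 and 3 of the 34 neuronal genes. Of the 68 histone genes they were 1, 7 and 4. The 399 olfactory receptor genes and the 113 keratin-associated and cornified genes, which serve as silent comparison, had no gene in any class.

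**Figure D5:**
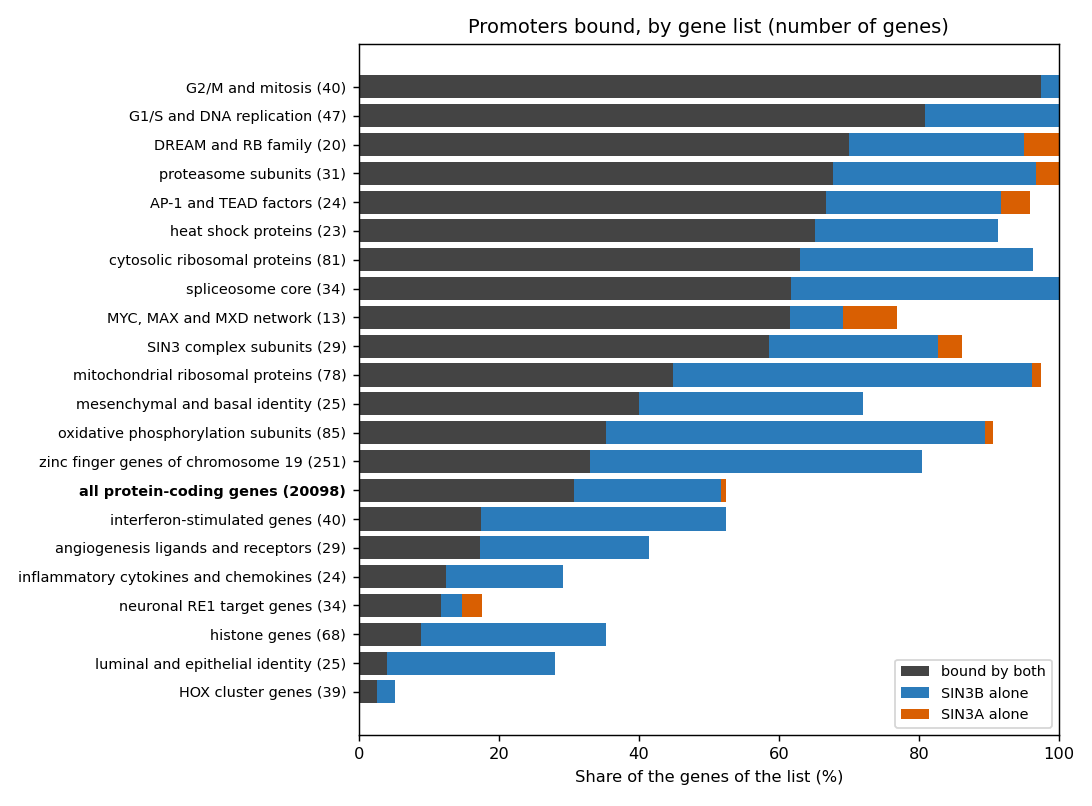
Share of the genes of each list (%) with both proteins (grey), SIN3B alone (blue) and SIN3A alone (orange) at the promoter, with the number of genes in brackets and all protein-coding genes in bold. Bars run from 39 of 40 genes with both for G2/M and mitosis to 1 of 39 for the HOX clusters. The blue part exceeds the grey one for oxidative phosphorylation, mitochondrial ribosomal and zinc finger genes. It also does so for luminal, interferon-stimulated, cytokine, angiogenesis and histone genes.

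Most promoters of the complex's own genes carried SIN3B, many of them with SIN3A. Of 29 SIN3 subunit genes, 17 had both and 7 SIN3B alone. The SIN3A promoter on chromosome 15 had both proteins, at 28.3% and 28.8% for SIN3A and at 33.2% and 26.0% for SIN3B. The SIN3B promoter on chromosome 19 had SIN3A at 52.9% and 20.1% and SIN3B in replicate 1 only, at 41.8%. OGT, KDM5B, BRMS1 and ARID4A were the best-ranked with both. KDM5B, a histone demethylase gene, ranked at 2.96% and 0.295% for SIN3A and at 10.7% and 15.5% for SIN3B. BRMS1 was the reverse, at 17.0% and 25.4% against 0.814% and 1.80%. EMSY, SAP18, PHF12 and MORF4L1 led those with SIN3B alone, all but MORF4L1 with SIN3A in 1 library. SAP30 itself had both, at 0.441% and 18.3% for SIN3A and at 37.5% and 9.22% for SIN3B. Of the other genes the study followed, RDX ranked at 22.7% and 7.32% for SIN3A and at 16.2% and 16.4% for SIN3B, and IPO13 at 20.6% and 19.04% and at 7.45% and 7.10%. HSPA6 had SIN3B alone at 86.1% and 49.7%. PDGFB, PDGFD, ADM2 and NOTCH3 had no listed summit of either protein within 1000 bp of a start site. CLDN1 and ARTN had a SIN3B summit in 1 library. A missing summit does not show that a protein was absent. By ChIP with quantitative PCR in parental cells, the paper reports both proteins at PDGFD, CLDN1, RDX and ADM2.

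Pol II, H3K4me3 and H3K9Ac were also profiled in the SAP30-KO1 line, a CRISPR/Cas9 knockout of SAP30 grown from several selected cells that were pooled, and give a readout that did not enter the classes. Neither SIN3 protein was profiled in that line. A Pol II peak was present at 99.0% and 99.2% of the promoter regions with both in the parental libraries and at 98.5% and 96.8% in the SAP30-KO1 libraries. At SIN3B alone the shares were 93.3% and 95.2% against 91.6% and 88.2%, and at SIN3A alone 83.4% and 88.1% against 78.8% and 76.8%. In each class the parental libraries were both above the SAP30-KO1 libraries. The differences of the means were −1.46 percentage points for both (SD of the SAP30-KO1 libraries 1.17), −4.40 for SIN3B alone (SD 2.44) and −7.95 for SIN3A alone (SD 1.40), each with p = 0.333 in a two-sided exact permutation test, the smallest that n = 2 each allows. The SDs of the parental libraries were 0.116, 1.36 and 3.28 in the same order. Whether the differences of the means differ between the classes was not tested. Neither the share over all promoters nor the length of the Pol II lists is given beside them. A difference across the whole Pol II lists therefore cannot be told apart from one of these classes. The H3K4me3 share at SIN3A alone was 94.0% and 91.4% against 90.1% and 89.4%. The H3K4me3 difference was 0.0638 percentage points for the regions with both and −0.0969 for SIN3B alone, and that of H3K9Ac was 0.0912, −0.172 and 0 in the 3 classes in the same order.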

How the data were processed

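ChIP-seq libraries were grouped by antibody target and cell line as labelled. The deposited files are lists of 1-bp peak summits, called by the authors in each library by itself, and their only value is the −log10 of the q-value, whose lowest values lie just above that of a q-value of 0.05. According to the submitters' processing notes, FastQC 0.11.2, Bowtie2 2.3.3.1, Picard and MACS2 2.1.0 were used with hg19. Which input each list was called against, and the sequencing depth, are not given in the sources used here, so no value could be scaled by depth and scores were not compared between lists. The 12 samples without a list were not analysed here.

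Summits outside chromosome Y and the mitochondrial genome were extended by 500 bp and merged. Annotation was GENCODE release 44 lifted to GRCh37, and a promoter was within 1000 bp of the start of any basic transcript of a protein-coding gene or a long noncoding RNA. Equal-length lists held the best-ranked 10861 summits, with ties in file order. Motifs (14 searched on both strands) were matched exactly in 200 bp. Named regions were up to 8 promoter and 5 other regions of each class with the best mean rank (for 1 protein alone, those with no summit of the other in either library), named genes up to 4 per class of each of 24 lists with the genes the study followed. Members and lists were chosen with earlier results of these data known. Groups of libraries were compared by two-sided exact permutation tests with Benjamini-Hochberg adjustment (Python 3.11.15, numpy 2.4.6 and scipy 1.17.1), and intervals are exact binomial. Merging, classes and list cutting were tested on simulated lists. Alternatives were other extensions, promoter windows, sequence windows, stricter or looser lists, a replicate block and each library left out. Some genes that the naming rule picks are not reported here.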

Additional observations from a re-analysis of the deposited data

How the results depend on the processing

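With summits extended by 100 bp, 56.6% of SIN3A regions had SIN3B, 30.1% of SIN3B regions had SIN3A, 3543 regions had both and 2761 SIN3A alone, 92.6% of the last at promoters. With 250 bp these were 89.0%, 40.2% and, for SIN3A alone, 689 regions, 83.3% at promoters. Lists of equal length gave 76.8% and 62.9%, 2724 regions of SIN3B alone (85.4% at promoters) and 1383 of SIN3A alone (85.97%), and 2365 and 1191 genes, and the first share was 54.4% in lists cut again, a length chosen after seeing the data. The better-ranked 50% of each list gave 86.4% and 32.5%, 2560 regions and 2942 genes with both, 88.3% of SIN3B alone at promoters, and 404 regions (86.1% at promoters) and 342 genes of SIN3A alone. Regions of either replicate gave 97.3%, 9080 with both and 10971 of SIN3B alone, promoter shares of 32.5% and 47.5% for SIN3B and SIN3A alone, and 2595 and 99 genes. Promoter windows of 500 and 3000 bp gave 61.0% and 71.9% of SIN3A alone at promoters, with 467 genes at 500 bp, and 3000 bp gave 74.4% for SIN3B alone. Start sites of protein-coding genes only gave 59.8% and 59.2%.

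The GC difference between both and SIN3B alone, 2.65 points at promoters, was 2.98 in the better-ranked 20% and 4.03 against regions with no SIN3A summit. Away from promoters it was 5.93, and 4.32 at equal length, 2.99 in the better-ranked 20% and 6.73 without any SIN3A summit. Both of these limits were chosen after seeing the data. The ETS difference at promoters, 0.0737 points, was −0.625 in 100 bp, −2.77 at equal length and −5.21 in the better-ranked 20%. The AP-1 difference away from promoters, −1.18 points, was 1.91 in 100 bp and 8.94 in the better-ranked 20%. Why these changed was not tested.

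Leaving out 1 library gave 92.6% to 98.3% of SIN3A regions with SIN3B, 34.0% to 57.8% of SIN3B regions with SIN3A, 5433 to 12807 regions of SIN3B alone, 102 to 577 regions and 61 to 332 genes of SIN3A alone, and promoter shares of 46.0% to 62.6% for SIN3B alone and 59.4% to 63.7% for SIN3A alone. With a replicate block, the promoter share of SIN3B summits less that of SIN3A was −23.3 points, as without it (sign-flip exact p = 0.5, the smallest with 2 pairs). Same-numbered libraries shared only a number (correlation of deviations −0.000575). Of all values recomputed, 110 moved by less than the limit set for them, 96 by more and 5 changed sign. Unknown depth limits every count of absent peaks.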

Other observations

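The CCAAT box and the E2F site were also searched. All libraries of one protein lay on one side of those of the other at promoter summits, with the E2F site at 7.65% and 7.58% for SIN3A and at 5.91% and 6.45% for SIN3B, and the CCAAT box at 13.0% and 13.3% for SIN3A and at 18.1% and 14.8% for SIN3B (exact permutation test, two-sided, p = 0.333 each, adjusted 0.418, n = 2 each). With lists of equal length the E2F shares lay closer, at 7.62% and 7.58% for SIN3A and at 7.13% and 7.35% for SIN3B. The CCAAT shares were then 13.0% and 13.3% for SIN3A and 19.3% and 14.7% for SIN3B. Promoter regions that reach no start site of a protein-coding gene made up 3.12% of those with both, 10.7% of those with SIN3B alone and 10.6% of those with SIN3A alone.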
